A study of Mus musculus with 96 samples.

Results

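Rcan1, Nfatc1, Acp5 and Ocstamp are 4 mouse genes tied to calcineurin-NFAT signalling and to the osteoclast, the bone-resorbing cell of the macrophage lineage. They were picked by gene symbol, and with their responses on these arrays already known, from 11593 genes tested. The array carries 6 probes for them, 2 each for Rcan1 and Nfatc1 and 1 each for Acp5 and Ocstamp. Because the choice used the responses themselves, their values are given as a description with no test. RNA came from RAW 264.7 cells, a mouse macrophage line that is a single transformed line and can form osteoclasts when given the cytokine RANKL, which no group here received. The groups were LPS with 2-Methyl-thio-ATP (2MA), LPS with interferon-gamma (IFNG), 2MA alone, IFNG alone and LPS alone, each set against untreated cells of the same time. LPS, a bacterial lipopolysaccharide that acts through TLR4, was used at 100 ng (no volume is given) with 100 pM of LPS binding protein, IFNG at 5 nM and 2MA, a nucleotide that acts on P2 receptors, at 500 uM (1 array of 2MA alone at 1 h is labelled 500 nM in its description). Each treatment was measured at 1, 2 and 4 h, and LPS alone also at 30 min. That gives 16 groups of 6 arrays, in 3 numbered sets of 2 dye orientations, 96 arrays in all. The labels do not say whether sets are separate cultures or whether treatments of a set share the same untreated RNA.

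In many cells a rise in cytosolic calcium activates the phosphatase calcineurin, which strips phosphate from NFAT proteins so that they enter the nucleus. Nfatc1 encodes the NFAT member that drives osteoclast formation, and its product turns on its own gene. Rcan1 encodes a protein that binds and inhibits calcineurin, and the transcript from its internal start is itself switched on by NFAT, which makes it a common readout of the pathway. Acp5 encodes tartrate-resistant acid phosphatase, the enzyme by which osteoclasts are stained, and Ocstamp encodes a membrane protein needed for osteoclast precursors to fuse.

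Promoter sequence is shown for the internal and the upstream start of Rcan1, which differ in the motifs discussed, and for the Acp5 start nearest the end of that gene. Each is the 250 bases before a transcription start in RefSeq on GRCm38.p6, read 5′ to 3′ on the minus strand, on which both genes lie. Capitals mark GGAAA, the core bound by NFAT, or its reverse complement TTTCC, and TGANTCA, the AP-1 site, which reads the same on both strands. The windows are chr16:92466170-92466419 and chr16:92400079-92400328 for Rcan1 and chr9:22130599-22130848 for Acp5.
Rcan1 upstream start: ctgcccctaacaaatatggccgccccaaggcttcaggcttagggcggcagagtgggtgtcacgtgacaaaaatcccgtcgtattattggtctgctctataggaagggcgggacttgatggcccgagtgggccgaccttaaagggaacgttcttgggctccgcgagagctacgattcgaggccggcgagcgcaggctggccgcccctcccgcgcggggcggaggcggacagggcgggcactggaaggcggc
Rcan1 internal start: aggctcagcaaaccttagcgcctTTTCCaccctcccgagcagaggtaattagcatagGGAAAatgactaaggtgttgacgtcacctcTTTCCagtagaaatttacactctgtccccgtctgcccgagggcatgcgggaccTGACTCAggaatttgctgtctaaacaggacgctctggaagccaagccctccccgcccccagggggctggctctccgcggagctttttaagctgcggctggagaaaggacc
Acp5 start nearest the gene's end: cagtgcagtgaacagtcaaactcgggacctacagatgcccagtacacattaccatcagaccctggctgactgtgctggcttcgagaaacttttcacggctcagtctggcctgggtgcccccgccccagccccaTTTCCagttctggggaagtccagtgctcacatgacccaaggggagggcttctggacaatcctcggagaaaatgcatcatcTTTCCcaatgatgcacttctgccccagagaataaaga

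The internal Rcan1 window held 3 GGAAA matches, beginning 227, 193 and 163 bases before the start, and 1 TGANTCA match 110 bases before it. The upstream Rcan1 window held 0 of either. The Acp5 window shown held 2 GGAAA matches and 0 of TGANTCA, and the other Acp5 windows held 1 GGAAA match each. No match of the 2 motifs overlapped another. Of 32851 promoter windows of this length, 55.6% held GGAAA on either strand, 6.75% held TGANTCA and 3.82% held both. A match is a match of letters only, and neither array probe of Rcan1 is known here to belong to either start. Windows of Ocstamp and Nfatc1 were not used here.

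The values are log2 ratios of treated over untreated RNA, averaged over the dye orientations of a set, so 1 is a doubling and 0 is no difference, and errors are SD over 3 sets. Direction was checked with 6 known targets: Tnf, Il1b, Ccl4 and Ptgs2 after LPS, and Irf1 and Socs1 after IFNG, were above 0 on every array with a value in all 22 gene and group pairs. Arrays gave a value for 13508 to 15004 of 16281 probes. Sets of 2MA alone correlated poorly with each other across all genes, with r between 0.12 and 0.48 at 1 h, -0.33 and 0.55 at 2 h, and -0.03 and 0.34 at 4 h, so each set of 2MA is given singly below. For LPS with 2MA those ranges were 0.58 to 0.79, 0.64 to 0.78 and 0.84 to 0.90. The ratios carry no absolute levels, so the macrophage identity of the cells could not be checked against markers: 8 of 9 macrophage markers and 4 of 8 osteoclast markers had a probe, with ratios only. The 6 probes of these genes had a value on all 96 arrays, except that the second Rcan1 probe had none on 1 array of LPS with IFNG at 1 h.

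Rcan1, the calcineurin inhibitor, was high early under every treatment with 2MA or LPS and near 0 under IFNG alone. RNA was taken from whole cultures, so more cells with the transcript and more transcript per cell cannot be told apart. With 2MA alone its log2 ratio was 2.39, 2.71 and 1.80 in sets 1, 2 and 3 at 1 h, which averages 2.30 ± 0.46, a ratio of 4.94. At 2 h the sets were at 2.77, 0.91 and 2.00, and at 4 h at 1.07, 0.08 and -0.45. Every set was thus above 0 at 1 and 2 h, and at 4 h the sets lay on both sides of 0. With LPS and 2MA together the sets were at 3.68, 3.13 and 1.53 at 1 h, at 2.68, 3.31 and 3.10 at 2 h, and at 1.67, 1.48 and 1.83 at 4 h. The mean at 2 h, 3.03 ± 0.32, is a ratio of 8.16 and the highest of all 16 groups. With both agents the gene was therefore still above 0 in every set at 4 h, where LPS alone was at -0.05, -0.04 and 0.28 and 2MA alone at 0.23 ± 0.77.

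With LPS alone Rcan1 was lower at 1 h than with 2MA alone: the LPS sets were at 0.24, 0.49 and 0.57 at 30 min and at 1.11, 1.60 and 1.16 at 1 h. At 2 h sets 1 and 2 were at 2.02 and 1.93 but set 3 was at -0.60. Set 3 was negative on both probes, at -0.44 and -0.76, while across all genes it correlated with the other sets at 0.62 and 0.60, against 0.70 between those. The mean at 2 h was 1.12 ± 1.49 with set 3 and 1.97 without it. LPS with IFNG gave 1.04 ± 0.10, 1.12 ± 0.25 and 0.15 ± 0.37 at 1, 2 and 4 h. IFNG alone gave -0.02 ± 0.22, 0.05 ± 0.33 and -0.23 ± 0.15, with sets on both sides of 0 at 1 and 2 h.

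**Figure D1:**
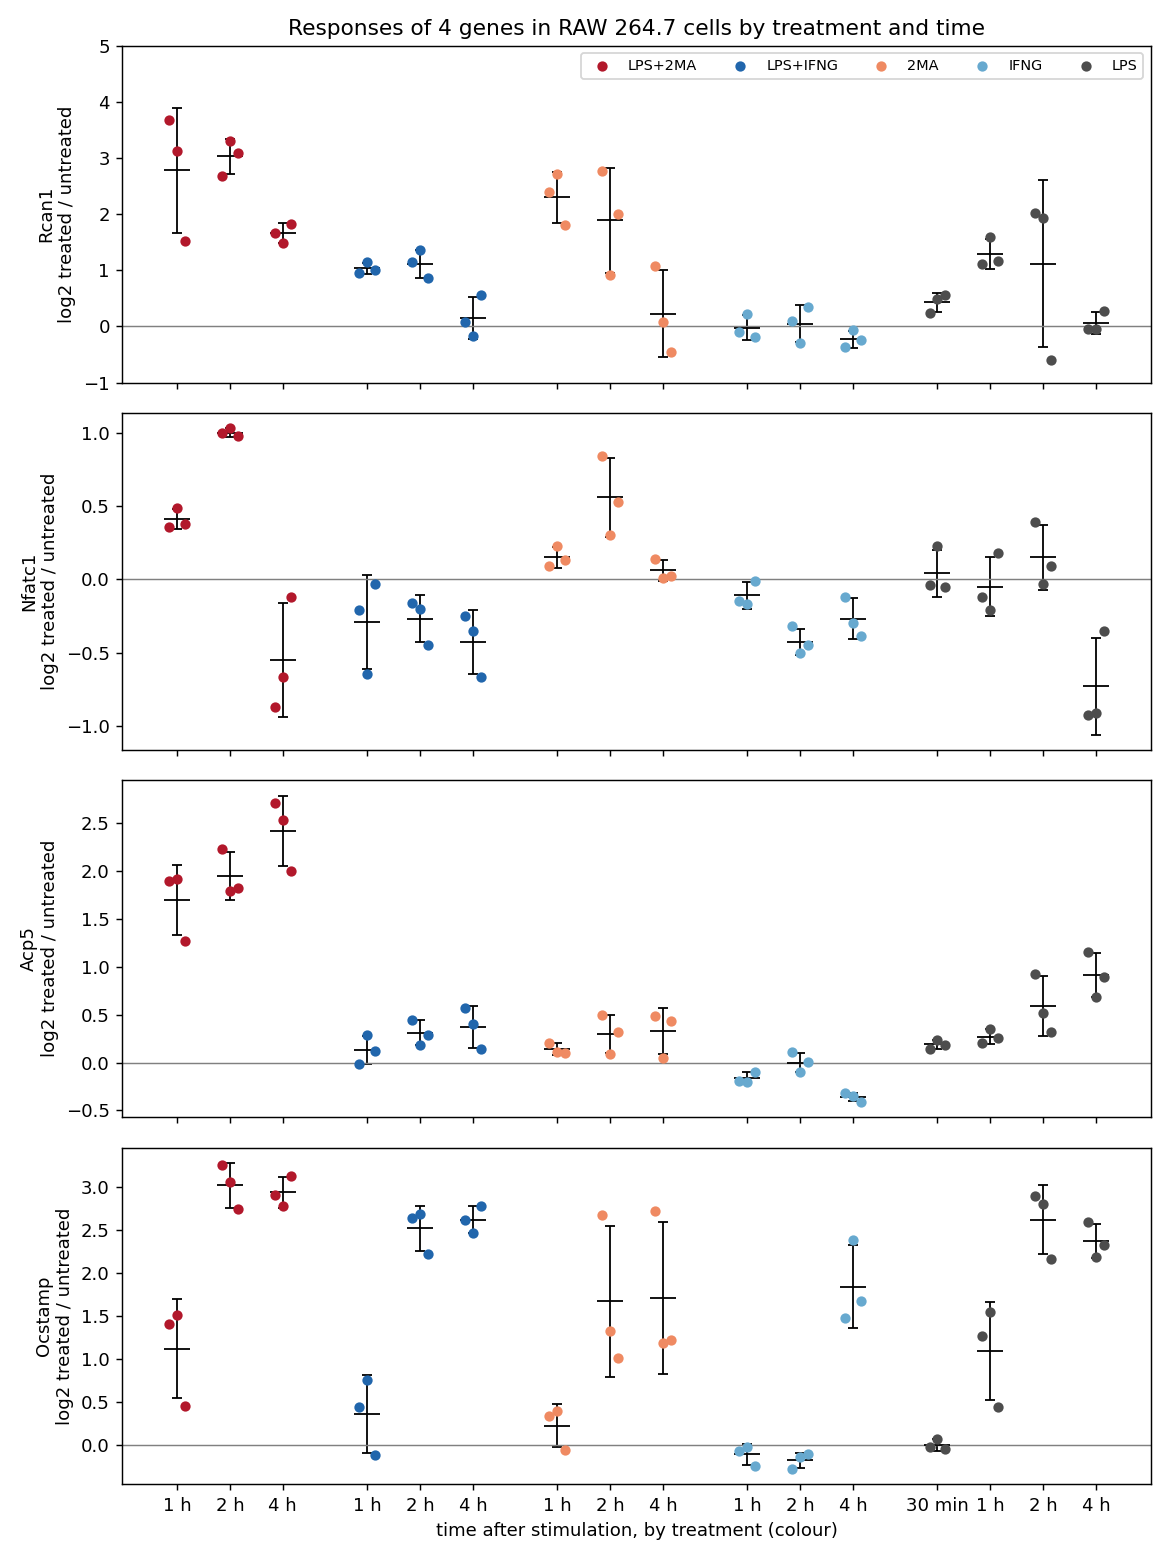
Log2 ratio of treated over untreated RNA (vertical axes) of Rcan1, Nfatc1, Acp5 and Ocstamp by treatment (colour) and time (horizontal axis). Points are the 3 sets, and the bar with whiskers is their mean ± SD; Acp5 with LPS and 2MA lies between 1.27 and 2.71 in every set, above every set of the other treatments.

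Nfatc1, the transcription factor, covered a narrower range than Rcan1, and its sign differed between times. With LPS and 2MA the sets, averaged over both probes, were at 0.36, 0.49 and 0.38 at 1 h and at 1.00, 1.03 and 0.98 at 2 h. At 4 h they were at -0.87, -0.67 and -0.12. All 3 sets were thus above 0 at 1 and 2 h and below 0 at 4 h. The mean at 2 h, 1.00 ± 0.03, is a ratio of 2.00 and the highest of the 16 groups.

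With 2MA alone Nfatc1 was at 0.84, 0.30 and 0.53 at 2 h, at 0.09, 0.23 and 0.13 at 1 h and at 0.14, 0.01 and 0.02 at 4 h. LPS alone left it at 0.04 ± 0.16, -0.05 ± 0.20 and 0.15 ± 0.22 at 30 min, 1 h and 2 h, with sets on both sides of 0 each time. At 4 h of LPS the sets were at -0.93, -0.91 and -0.35, the lowest mean of the 16 groups at -0.73 ± 0.33, a ratio of 0.60. Averaged over both probes, groups with IFNG were below 0 in every set at every time. IFNG alone gave -0.11 ± 0.09, -0.43 ± 0.09 and -0.27 ± 0.14 at 1, 2 and 4 h, and LPS with IFNG gave -0.29 ± 0.32, -0.27 ± 0.16 and -0.43 ± 0.22. At 4 h Nfatc1 was therefore below 0 with LPS and 2MA, LPS and IFNG, IFNG, and LPS. With 2MA alone it was near 0, and the means of its probes had opposite signs (-0.08 and 0.19).

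The 2 Nfatc1 probes differed in size in some groups and in sign in a few. With LPS and 2MA at 2 h the first probe (4265) was at 0.88, 0.65 and 0.84 and the second (8063) at 1.12, 1.41 and 1.11, with no overlap. With LPS alone at 4 h they averaged -0.72 ± 0.31 and -0.74 ± 0.36. With 2MA alone at 1 h the first was at -0.49, 0.26 and -0.24 and the second at 0.68, 0.19 and 0.50, so their means, -0.16 and 0.46, have opposite signs and the direction there is not settled. The same holds for 2MA at 4 h, with means of -0.08 and 0.19. In groups with IFNG the first probe was below 0 in every set. The second was slightly above 0 in set 3 of IFNG at 1 h (0.07). With LPS and IFNG it was so in set 3 at 1 h (0.02) and set 2 at 2 h (0.03). Over 48 sets the probes correlated at 0.796. The 2 Rcan1 probes (71 and 18495) correlated at 0.979 over 47 sets, and their group means were never more than 0.27 apart.

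**Figure D2:**
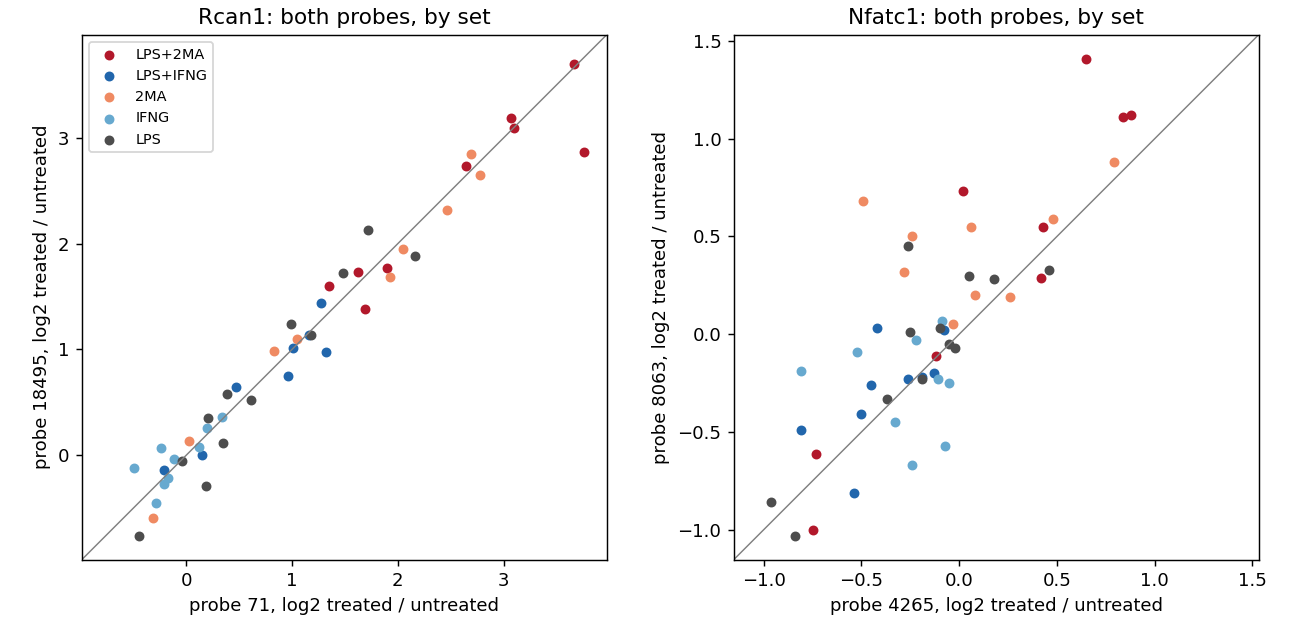
Log2 ratio of treated over untreated RNA of the second probe (vertical axis) against the first (horizontal axis) for Rcan1 (left) and Nfatc1 (right). Each point is 1 set, coloured by treatment, and the line marks equal values; Rcan1 points lie along it (r = 0.979), and Nfatc1 points spread around it (r = 0.796).

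Acp5, the acid phosphatase, was high with LPS and 2MA together and below a ratio of that size with either alone. With LPS and 2MA the sets were at 1.90, 1.92 and 1.27 at 1 h, at 2.23, 1.79 and 1.82 at 2 h, and at 2.71, 2.54 and 2.00 at 4 h. The 4 h mean, 2.42 ± 0.37, is a ratio of 5.35. On the 6 single arrays at 4 h the values ran from 1.73 to 2.90 with a median of 2.51, so both dye orientations gave values well above 0. LPS alone gave 0.27 ± 0.08 at 1 h, 0.59 ± 0.31 at 2 h and, in sets 1, 2 and 3, 1.16, 0.69 and 0.89 at 4 h. 2MA alone gave 0.20, 0.11 and 0.10 at 1 h, 0.50, 0.09 and 0.32 at 2 h, and 0.49, 0.05 and 0.43 at 4 h. Those sets were all above 0 and all below the lowest set of LPS with 2MA.

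With IFNG Acp5 was lower. IFNG alone put it at -0.32, -0.35 and -0.41 at 4 h, the lowest group of the 16, and LPS with IFNG put it at 0.57, 0.40 and 0.14 at 4 h. These lie below every set of LPS alone at that time. The difference of LPS with IFNG from LPS was -0.14 ± 0.08, -0.28 ± 0.24 and -0.54 ± 0.23 at 1, 2 and 4 h, below 0 in every set at each time.

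Ocstamp, the fusion protein, was high with each agent alone, at different times. LPS alone left it at 0.00 ± 0.07 at 30 min and put it at 1.27, 1.54 and 0.44 at 1 h, at 2.90, 2.80 and 2.16 at 2 h, and at 2.59, 2.19 and 2.32 at 4 h. 2MA alone gave 0.34, 0.39 and -0.06 at 1 h, 2.67, 1.32 and 1.01 at 2 h, and 2.72, 1.18 and 1.22 at 4 h. Set 1 was the highest set of 2MA at 2 and 4 h, and the other sets were still above 1. IFNG alone gave values below 0 in every set at 1 and 2 h, averaging -0.11 ± 0.12 and -0.18 ± 0.09, and then 1.47, 2.38 and 1.67 at 4 h, a mean ratio of 3.57.

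Combined treatments put Ocstamp near the LPS values. With LPS and 2MA the sets were at 1.41, 1.51 and 0.45 at 1 h, at 3.25, 3.06 and 2.74 at 2 h, and at 2.91, 2.78 and 3.13 at 4 h. With LPS and IFNG they were at 0.44, 0.76 and -0.12 at 1 h, at 2.64, 2.69 and 2.22 at 2 h, and at 2.61, 2.47 and 2.78 at 4 h. At 1 h LPS with IFNG was lower than LPS in every set, by -0.83, -0.78 and -0.56.

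The study's dual design asks whether a second ligand changes the LPS response, and the 4 genes differed in this. LPS with 2MA minus LPS, taken within each set, was 1.70, 1.57 and 1.02 for Acp5 at 1 h, 1.31, 1.27 and 1.50 at 2 h, and 1.56, 1.85 and 1.12 at 4 h. For Rcan1 it was 2.57, 1.53 and 0.37 at 1 h and 1.72, 1.52 and 1.55 at 4 h. At 2 h it was 0.66, 1.38 and 3.70, where set 3 holds the low LPS value; the mean is 1.91 ± 1.58 with set 3 and 1.02 without it. Both genes were thus higher with both agents than with LPS alone in every set at every time. For Nfatc1, averaged over both probes, the difference was 0.46 ± 0.25, 0.85 ± 0.23 and 0.18 ± 0.10 at 1, 2 and 4 h, above 0 in every set. On its first probe alone set 3 was at -0.03 at 1 h. For Ocstamp it was 0.03 ± 0.09 at 1 h, with sets on both sides of 0, and 0.40 ± 0.16 and 0.57 ± 0.24 at 2 and 4 h, above 0 in every set. Against 2MA alone, Acp5 and Ocstamp were higher with both agents in every set at every time. Rcan1 was lower in set 3 at 1 h (-0.27) and set 1 at 2 h (-0.09), and higher in all other sets. Nfatc1, averaged over both probes, was higher in every set at 1 and 2 h. At 4 h it was lower in every set, at -1.01, -0.68 and -0.14.

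Whole ranges of sets were compared as well. Every set of LPS with 2MA lay above every set of LPS for 2 of the 4 genes at 1 h (Nfatc1 and Acp5), 3 at 2 h (Rcan1, Nfatc1 and Acp5) and 3 at 4 h (Rcan1, Acp5 and Ocstamp). Of all 11593 genes the share was 3.70% at 1 h, 3.08% at 2 h and 5.49% at 4 h. Probes of a gene were averaged for this. On each Nfatc1 probe alone the ranges overlapped at 1 h. The lowest set with both agents was at 0.02 and 0.29 on the first and second probe, and the highest of LPS at 0.05 and 0.30. Nothing is read from these counts, because the genes were chosen with this contrast in view.

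Against the sum of the single responses the 4 genes fell on different sides. Acp5 exceeded the sum of LPS and 2MA in every set at every time, by 1.50, 1.46 and 0.91 at 1 h, 0.81, 1.18 and 1.18 at 2 h, and 1.06, 1.80 and 0.68 at 4 h. Ocstamp was below the sum at 2 h, by -2.32, -1.06 and -0.43, and at 4 h, by -2.40, -0.60 and -0.41. Rcan1 was above the sum in every set at 4 h, at 0.65, 1.44 and 2.00, and its sets lay on both sides of 0 at 1 h (0.18, -1.18 and -1.43) and at 2 h (-2.10, 0.47 and 1.70). Nfatc1 departed from the sum by 0.31 ± 0.21, 0.29 ± 0.50 and 0.12 ± 0.17 at 1, 2 and 4 h, and the 1 h value was 0.58 on its first probe and 0.04 on its second. For LPS and IFNG the departure was -1.58 ± 0.46 for Ocstamp at 4 h, below 0 in every set. For Nfatc1 at 4 h it was 0.58 ± 0.44, above 0 in every set when averaged over both probes. On the second Nfatc1 probe it was 0.82, 0.69 and -0.03. A sum on this scale is a product of ratios, and the same LPS values enter each of these differences.

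**Figure D3:**
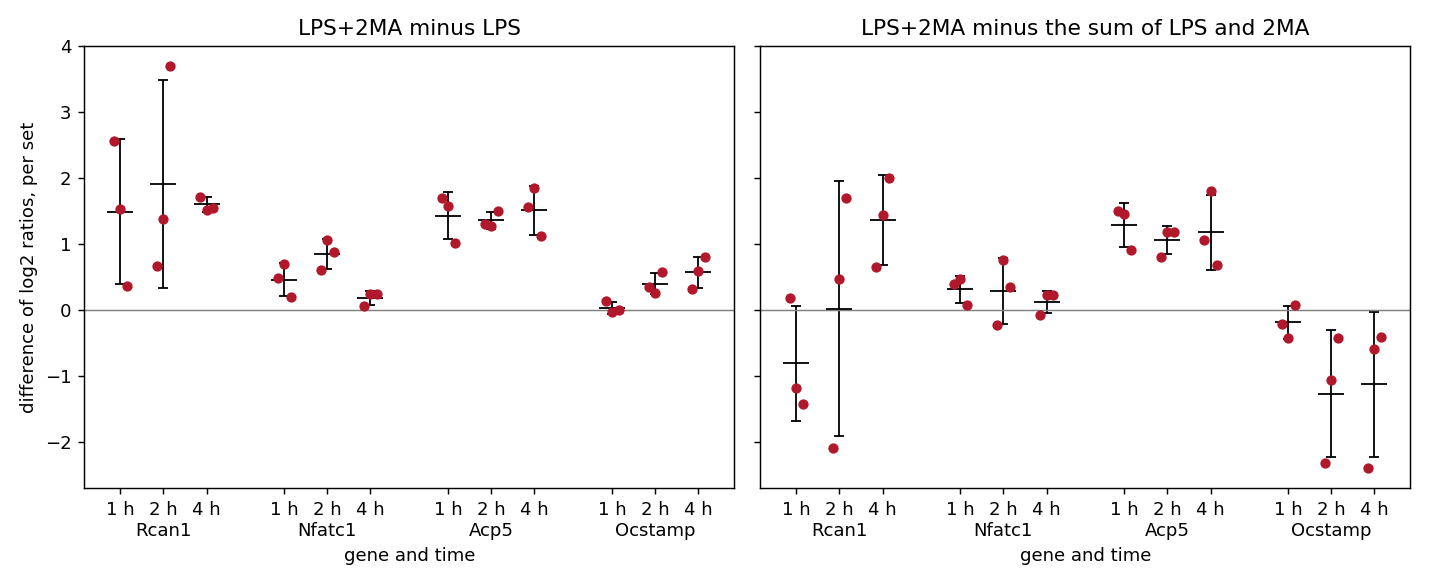
Difference of log2 ratios (vertical axis) between LPS with 2MA and LPS (left) and between LPS with 2MA and the sum of LPS and 2MA (right), by gene and time (horizontal axis). Points are the 3 sets, with mean ± SD; all Acp5 points are above 0 in both panels, and the Ocstamp points at 2 and 4 h are above 0 on the left and below 0 on the right.

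In order of group means, the 16 groups of each gene formed long runs without gaps. Of 15 neighbouring pairs the set ranges overlapped in 14 for Rcan1, 14 for Nfatc1, 13 for Acp5 and 15 for Ocstamp. For Rcan1 the order ran from LPS with 2MA at 2 h (3.03) through LPS with 2MA at 1 h (2.78), 2MA at 1 h (2.30) and 2MA at 2 h (1.89) to IFNG at 4 h (-0.23), and its 1 gap lay between LPS with IFNG at 1 h (1.04) and LPS at 30 min (0.43). For Nfatc1 the gap set LPS with 2MA at 2 h (1.00) apart from 2MA at 2 h (0.56). For Acp5 the gaps set the 3 times of LPS with 2MA (down to 1.70) apart from LPS at 4 h (0.91), and IFNG at 4 h (-0.36) from IFNG at 1 h (-0.16). For Ocstamp the order ran from LPS with 2MA at 2 h (3.02) and 4 h (2.94), LPS with IFNG at 4 h (2.62) and LPS at 2 h (2.62) down to IFNG at 2 h (-0.18).

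The 4 patterns were not alike. Over the 16 group means Rcan1 correlated with Nfatc1 at 0.71 and with Acp5 at 0.63, and Acp5 with Ocstamp at 0.56. Nfatc1 with Acp5 gave 0.23, Rcan1 with Ocstamp 0.21 and Nfatc1 with Ocstamp 0.05. Groups share the LPS treatment and possibly untreated RNA, so these are descriptions. Likeness was searched among the 9755 tested genes that have a name. The 5 most like Ocstamp were Nfkbie, an inhibitor of NF-kappaB (r = 0.965), Rffl, Rbpj, Icam5 and Spi1, with r from 0.932 upward. Nfkbie was at 2.88 ± 0.36 with LPS and 2MA at 2 h and at 1.68 ± 0.14 with IFNG at 4 h, after -0.10 ± 0.04 and 0.23 ± 0.15 with IFNG at 1 and 2 h.

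For Rcan1 the 5 were Cyth2, Krtap9-3, Fabp1, Bmp2 and Egr3, a zinc-finger factor of the immediate-early class, with r from 0.816 to 0.848. Over the 48 set values r was only 0.367 for Krtap9-3 and 0.319 for Fabp1, against 0.713, 0.705 and 0.768 for Cyth2, Bmp2 and Egr3. The highest group means of Bmp2 and Egr3 were 1.60 and 2.75, with LPS and 2MA at 1 h, and those of Krtap9-3 and Fabp1 were 0.18 and 0.26. With 2MA alone at 1 h Egr3 was at 2.36, 2.46 and 1.44. The patterns parted at IFNG at 4 h, where Egr3 was at 1.00, 0.96 and 1.84 and every set of Rcan1 was below 0. For Acp5 the 5 were Serpinc1, Plet1, Popdc2, Atp2b1 and H2-M2, with r from 0.849 to 0.876 and highest group means from 0.50 to 1.61. For Nfatc1 they were Wdr31, Gpcpd1, Cyth2, H4c9 and Rasa2, with r from 0.799 to 0.851 and highest group means from 0.10 to 0.53. Over the 48 set values r was only 0.299 for Wdr31 and from 0.695 to 0.731 for the others.

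**Figure D4:**
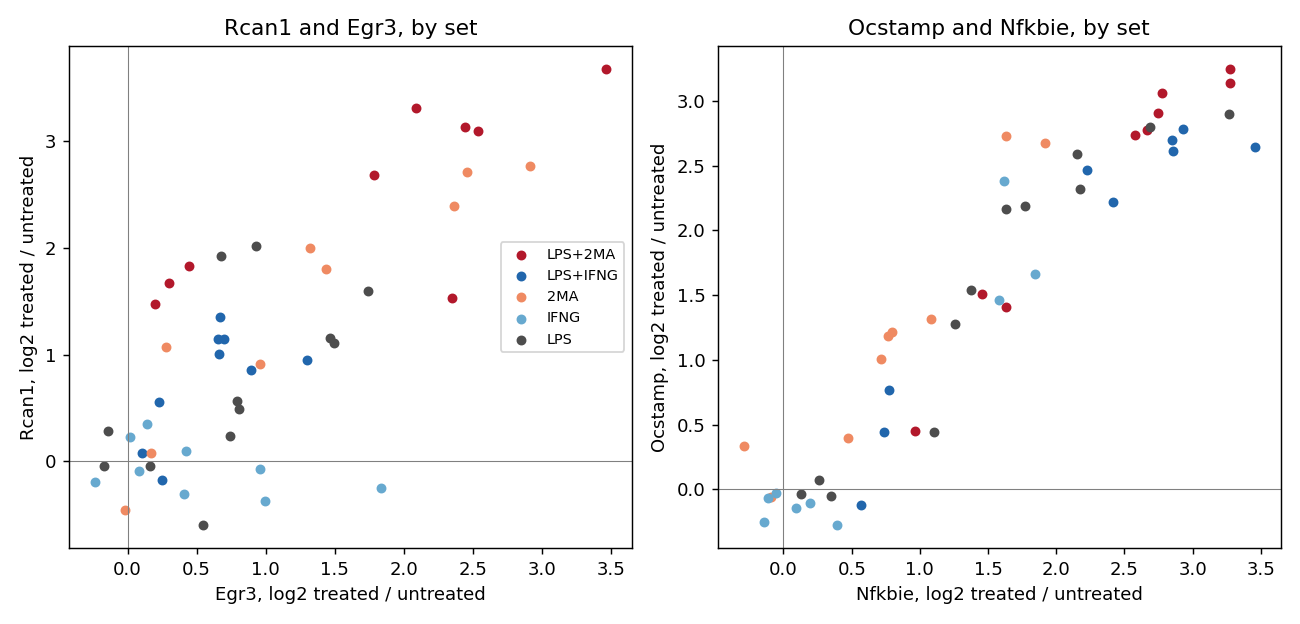
Log2 ratio of treated over untreated RNA of Rcan1 against Egr3 (left) and of Ocstamp against Nfkbie (right), 1 point per set, coloured by treatment. Nfkbie and Ocstamp points lie along a single band (r = 0.943 over 48 sets), and the Egr3 and Rcan1 points (r = 0.768) include sets of IFNG alone with Egr3 near or above 1 and Rcan1 below 0.

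The rest of the pathway was read from 5 lists of 84 genes, of which 62 were tested. These 62 were tested with limma over all 11593 genes at an adjusted p of 0.05. The lists were chosen with earlier results of these data known, so their calls and p-values are no independent evidence on the pathway. The lists are calcineurin-NFAT core genes (19 tested), store-operated calcium entry (7), osteoclast effector genes (9), inputs to osteoclast differentiation (19) and its repressors (8). With 2MA alone at 1 h, 1 list gene rose and 4 fell, against 0.794% and 0.612% of all genes. Relb, an NF-kappaB subunit, rose, at 0.90, 0.33 and 0.29 (limma, adjusted p = 0.0393). The 4 that fell were Ppp3r1, the calcineurin regulatory subunit (-2.52, -0.41 and -0.98), Clcn7, a chloride transporter of the osteoclast (-1.31, -0.29 and -0.59), and the HLH repressors Id2 (-1.29, -1.42 and -0.86) and Id3 (-1.09 and -1.20, with no value in set 2). By limma, with the spread of each gene shared by all 16 groups, the adjusted p was 0.0362 for Ppp3r1 and 0.00252 for Id2.

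With 2MA at 2 h, 5 list genes rose and 1 fell, against 1.03% and 0.302% of all genes. Fosl2, an AP-1 subunit, was at 1.94, 0.28 and 0.56, so set 1 carries most of its mean. Mitf was at 1.24, 0.56 and 0.84 and Relb at 1.03, 0.88 and 0.54. Atp2b1, a calcium pump of the plasma membrane, was at 0.76, 0.63 and 0.20 and Rbpj at 0.44, 0.22 and 0.50, while Id3 fell, at -0.76, -0.26 and -1.31. At 4 h 2 list genes rose and 2 fell, against 1.42% and 0.578% of all genes. Relb (0.90, 0.68 and 0.61) and Nfkb2 (1.01, 0.42 and 0.43) rose, and Nfatc3 (-0.35, -0.17 and -1.16) and Id3 (-1.01, -0.31 and -0.82) fell. Without set 1, 0 list genes were called at each of the 3 times, and calls over all genes dropped too, to 20, 12 and 13 at 1, 2 and 4 h, against 163, 154 and 232 with all sets. Without set 3 the list counts at 2 and 4 h were 3 and 1, against 6 and 4 with all sets. With the spread taken from each 2MA group only, 4, 0 and 1 list genes were called at 1, 2 and 4 h. Over all genes that setting called 119, 14 and 36.

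LPS with 2MA differed from LPS in 0 of the 62 list genes at 1, 2 and 4 h by limma, against 0.0776%, 0.0949% and 0.354% of all genes called. At an unadjusted p under 0.05 the counts were 4, 4 and 6 of 62, against 2.17%, 4.8% and 5.73% of all genes at that threshold. The list medians of this difference lay between -0.09 and 0.14, against -0.009 to 0.007 over all genes. A fit with set number as a block across all 16 groups also called 0 list genes at each time. Other settings, including either dye alone and each set left out, called 0 as well. Over all genes, however, either dye alone called only 4 to 22 and each set left out only 1 to 11. A count of 0 among 62 genes therefore says little.

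LPS with IFNG differed from LPS in 2, 7 and 4 list genes at 1, 2 and 4 h. The repressor Irf8, which IFNG is known to induce, was higher by 3.14 ± 0.18, 3.31 ± 0.15 and 2.25 ± 0.32, with limma adjusted p-values of 8.53e-14, 1.92e-14 and 5.22e-10. Id2 was higher at 2 h (2.08 ± 0.46) and 4 h (1.32 ± 0.34), and Id3 was lower at 2 h (-1.39 ± 0.26) and 4 h (-1.62 ± 0.23). Mmp9, a collagen-degrading protease of osteoclasts and macrophages, was lower by -0.62 ± 0.15 at 2 h and -0.94 ± 0.07 at 4 h (limma, adjusted p = 0.00289 and 3.95e-06). Bcl6 (-1.19 ± 0.26) was lower at 1 h, and Itgav (-0.97 ± 0.32), Nfat5 (-0.65 ± 0.20) and Atp2a2 (-0.40 ± 0.16) were lower at 2 h. Of all genes 0.966%, 2.04% and 2.61% were higher at 1, 2 and 4 h and 0.0431%, 0.707% and 1.54% lower. The 2 h count was 3 without set 1 and 3 without set 2. The 1 h count was 1 without set 1 and 1 without set 2. Both second-ligand contrasts use the same LPS arrays.

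LPS alone at 4 h, where Nfatc1 was lowest and Ocstamp was high, called 28 list genes, 18 higher and 10 lower, against 12.7% and 15.9% of all genes. Among effector genes 5 of 9 rose and 0 fell, including Mmp9 (1.24 ± 0.20), Clcn7 (1.09 ± 0.05), Itgav (1.08 ± 0.20) and Tcirg1 (0.75 ± 0.06). Among repressors 6 of 8 rose, including Tnfaip3 (2.15 ± 0.10), Id2 (1.35, 1.71 and 0.05), Irf8 (1.01 ± 0.20) and Id3 (0.89 ± 0.13). Among core genes 3 of 19 fell, the phosphatase subunit Ppp3ca (-0.45 ± 0.11), Nfatc3 (-0.59 ± 0.19) and Calm2 (-0.62 ± 0.40). That share, like the 10 lower of 62 list genes, is close to the 15.9% of all genes, so nothing is read from it. Among inputs 6 of 19 rose, including Nfkb2 (1.69 ± 0.25), Jdp2 (0.65, 0.87 and 2.25), Relb (1.19 ± 0.11) and Mitf (1.03 ± 0.11). The 4 inputs that fell were the receptors Csf1r (-0.94 ± 0.23) and Trem2 (-0.66 ± 0.13), Pparg (-0.37 ± 0.08) and the kinase Btk (-0.35 ± 0.16). In the calcium entry list Atp2b1 rose (0.66 ± 0.14), and the calcium release channel Itpr3 (-0.80 ± 0.17), the phospholipase Plcg1 (-0.33 ± 0.03) and the pump Atp2a2 (-0.27 ± 0.17) fell.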

How the data were processed

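Each array of 16281 probes compared treated and untreated RNA of a set and time in 2 colours, and its partner array had the dyes swapped. The deposited values are log2 ratios, read as Cy5 over Cy3 from the channels per the labels. The authors' background correction, normalisation and centring are not stated in the labels or file. Values of exactly 0 (1277 to 2773 per array) were read as missing. Ratios were oriented as treated over untreated, and both orientations were averaged to a set value. Probes were named from the platform annotation of 2016, and 13698 with a value in at least 2 of 3 sets of every group were averaged to 11593 genes. Per-sample columns left unused number 0.

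Lists were tested with limma 3.58.1 in R 4.3.3, 1 mean per group over 48 set values, two-sided, with Benjamini-Hochberg adjustment within each comparison. The code was tested on simulated data. The 4 genes, the lists and the tests were chosen with earlier results of these data known. Named genes are the 4 genes with every probe, per list and comparison up to 4 genes a direction with the largest change among those called with 1 sign in all sets, and the 5 genes most like each of the 4. Set numbers pair the groups, but the main fit has no term for set number. Deviations of same-numbered sets correlated between 0.119 and 0.73 in every pair of LPS with a second ligand and LPS. The p-values rest on differences among sets, which the labels do not describe as separate cultures, and the 3 sets per group limit the precision. Alternatives covered zeros, centring, dye, probes, filter, block, spread and each set left out. Tables and plots used Python 3.11.15 and matplotlib 3.10.9.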

Additional observations from a re-analysis of the deposited data

Results flagged for a closer look

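Nfatc1 with LPS and 2MA had opposite signs at different times in every set: its mean log2 ratio was 0.41 at 1 h and 1.00 at 2 h, and -0.55 at 4 h. Ocstamp with IFNG alone also changed sign in every set, with means of -0.11 at 1 h and -0.18 at 2 h, and 1.84 at 4 h. Its negative values were small beside those at 4 h: the 1 h sets were at -0.07, -0.02 and -0.25, and 1 array at 1 h was at 0.03. The differences between times were not tested.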

How the results depend on the processing

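Of 1008 recomputed values of the 4 genes, 974 moved by less than 1 SD and 34 by more, these under a single dye or probe. Leaving out 1 of 3 sets, or taking their median, cannot move a mean by 1 SD of those sets. The count therefore says nothing about the choice of sets. Rcan1 with LPS at 2 h, at 1.12 with all sets, was at 0.66, 0.71 and 1.97 without sets 1, 2 and 3. The sign differed from that with all sets and arrays in 35 of the 1008 values. These belong to 17 results no larger than 0.23 in size, and 14 of the 35 came from leaving out 1 set. Rcan1 with 2MA at 4 h was at -0.18 without set 1, and its departure from the sum of LPS and 2MA at 2 h at -0.82 without set 3. By probe, Nfatc1 with 2MA was at -0.16 and 0.46 at 1 h and at -0.08 and 0.19 at 4 h. By dye, Acp5 with 2MA at 1 h was at 0.02 (treated RNA in Cy5) and 0.25 (Cy3). With Cy5 arrays alone the departure from the sum of LPS and IFNG was 0.06 for Acp5 at 4 h and -0.02 for Ocstamp at 2 h. Dye offsets, Cy5 minus Cy3, were -0.57 ± 0.40 and 0.22 ± 0.42 for the Rcan1 probes, -0.25 ± 0.24 for Acp5 and 0.23 ± 0.23 for Ocstamp.

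For the list calls with 2MA alone, leaving out 1 set gave 0 to 7 at 1 h, 0 to 5 at 2 h and 0 to 4 at 4 h, against 5, 6 and 4 with all sets. Cy5 arrays alone gave 15 at 1 h, with 1470 calls over all genes against 163 with both dyes, and Cy3 arrays 9, 10 and 7 at 1, 2 and 4 h, with 566, 1331 and 928 over all genes against 163, 154 and 232. Kept zeros gave 3 at 1 h, and spread from the groups compared only gave 0 at 2 h and 1 at 4 h. For LPS with IFNG against LPS, leaving out 1 set gave 1 to 2 at 1 h and 3 to 5 at 2 h, and at 2 h Cy5 arrays alone and spread from the groups compared only each gave 4. With set number as a replicate block the counts were 2, 8 and 6 at 1, 2 and 4 h, within 1.5 times of 2, 7 and 4, and the block moved no other list count further. Over all genes the block called 22, 28 and 80 for LPS with 2MA against LPS, against 9, 11 and 41 without it. The cause of these changes was not tested.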
